A study of Mus musculus with 6 samples.

Results

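The mitosis genes described here are 38 mouse genes of the G2 and M phases of the cell cycle, the spindle and cytokinesis, named as a list with earlier results of these data known. The deposited tables list 43274 genes by Ensembl identifier, and all 38 were found there through their mouse symbols. All of them also passed the filter on low values, which asked for 10 normalized counts or more on average and left 16368 genes for testing. RNA was sequenced from bulge stem cells (bulge SCs), sorted at postnatal day 21 (P21) as CD34+ cells with high α6 integrin. There were 3 control and 3 ILK-K5 libraries. Both genotypes carried Cre recombinase under the keratin 5 (K5) promoter, which is active in epidermal and hair follicle keratinocytes. Control mice carried 1 floxed allele of Ilk, the gene of integrin-linked kinase, beside a wild-type allele (Ilk +/- in the labels). In ILK-K5 mice both alleles were floxed (Ilk -/-). Both were on a mixed C57Bl6-129/Sv background, and the comparison asks how loss of ILK from keratinocytes changes the expression of genes in bulge SCs. The labels do not say that the libraries of a genotype came from separate animals, so the p-values measure only the spread between these libraries.

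A cell enters mitosis when Cdk1, the mitotic cyclin-dependent kinase, is switched on by cyclins A and B. Aurora and Polo-like kinases then help to build the spindle, kinetochores tie chromosomes to microtubules, and a checkpoint holds anaphase back until every chromosome is attached. The anaphase-promoting complex, or cyclosome, ends mitosis by marking cyclins and other proteins for destruction, and the central spindle directs cytokinesis. Most of these genes are transcribed mainly in G2 and M, so their RNA in a tissue is commonly read as a sign of cycling cells. Bulge SCs are largely quiescent in telogen, the resting phase of the hair cycle. In RNA of a whole sorted population, fewer cells with such RNA and less of it per cell cannot be told apart.

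Most members with a promoter window share motifs there. Genes of this phase are known to carry a cell cycle homology region (CHR), read by the MuvB proteins of the DREAM and B-Myb complexes, and CCAAT boxes, bound by the factor NF-Y. RefSeq promoter windows on build GRCm38.p6, from 250 bases before to 50 after the start, were at hand for 33 members in 35 windows. No window was given for Ccna2, Aurkb, Kif20a, Tpx2 and Incenp. The last bases of 32 of the 35 windows were found in a transcript of the gene. Those of Aurka, Kif2c and Mad2l1 were not, so their starts are less sure. Prc1 has windows at different starts, and 1 of them is printed below. A CHR, searched on both strands as TTTGAA or TTCGAA, was in 28 of the 35 windows (80.0%), against 19.2% of all 32851 windows. In many of these the only CHR match lay after the start, as in Hmmr, Bub1 and Spc25 (8, 14 and 24 bases on). CCAAT, also on both strands, was in 28 (80.0%), against 37.4% of all. Both were in 25 (71.4%), against 7.52% of all, and 20 windows (57.1%) held CCAAT more than once, against 11.7%. The windows of Birc5, Mad2l1, Nuf2 and Nusap1 held neither motif. A match of letters is a description and not a bound site, and the RNA does not show which factors were there. The 150 bases before the start are printed for 5 members, as Mki67, Top2a and Prc1 are among those that moved together between libraries and Cdk1 and Cdc20 among those that did not pass that test. They lie at chr7:135716380-135716529, minus strand (Mki67), chr11:99024190-99024339, minus strand (Top2a), chr7:80294326-80294475, plus strand (Prc1), chr10:69352913-69353062, minus strand (Cdk1) and chr4:118437344-118437493, minus strand (Cdc20). Each runs 5′ to 3′ along the gene's strand, and capitals mark every CHR and CCAAT match on either strand.
Mki67: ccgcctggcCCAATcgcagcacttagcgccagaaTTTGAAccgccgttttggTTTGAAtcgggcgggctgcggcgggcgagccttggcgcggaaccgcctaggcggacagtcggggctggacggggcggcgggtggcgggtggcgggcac
Top2a: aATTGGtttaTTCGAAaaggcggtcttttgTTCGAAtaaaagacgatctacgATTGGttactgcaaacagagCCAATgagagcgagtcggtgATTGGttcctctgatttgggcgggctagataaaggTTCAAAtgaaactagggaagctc
Prc1: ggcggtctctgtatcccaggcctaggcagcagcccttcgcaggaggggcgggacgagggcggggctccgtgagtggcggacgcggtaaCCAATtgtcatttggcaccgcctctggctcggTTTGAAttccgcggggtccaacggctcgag
Cdk1: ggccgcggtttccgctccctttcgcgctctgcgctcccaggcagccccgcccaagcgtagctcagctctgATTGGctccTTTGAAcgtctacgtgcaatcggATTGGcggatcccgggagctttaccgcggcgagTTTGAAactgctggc
Cdc20: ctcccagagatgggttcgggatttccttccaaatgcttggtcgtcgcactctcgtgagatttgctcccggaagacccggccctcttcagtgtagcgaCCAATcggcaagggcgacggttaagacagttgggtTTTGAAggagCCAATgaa
In these printed stretches Top2a has 3 CHR and 4 CCAAT matches, and Cdk1 has 2 of each. Only stretches that held both motifs were taken for printing. Their presence in all 5 members follows from that choice and says nothing about differences between libraries.

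The libraries held between 8228019 and 11969072 reads on genes, and 1 read was worth 0.726 to 1.52 normalized counts. No member was at a limit set by depth except at the low end: the fewest reads of any member in a library were 5, for Cdc20 in control library 2, and 36 of the 38 had at least 10 reads in every library. The targeted gene could not check the genotypes. Ilk had 10.6, 16.7 and 38.5 normalized counts in the controls and 14.8, 30.9 and 29.2 in ILK-K5, and 89.7% of its exon bases overlap Rrp8 and Taf10. The labelled cell type was met in part: Krt15, a keratin of bulge SCs, stood at 28999 to 97406 normalized counts in the controls and 10084 to 37668 in ILK-K5. Cd34, the surface marker of the sort, was lower in ILK-K5, at 2009, 947 and 1959.9 against 296, 559.9 and 433 (log2 fold change -1.90, limma, adjusted p = 0.0239). Of the 10 bulge markers listed, 1 (Cd34) was called lower and 0 higher, beside 0.599% and 2.93% of all genes. Their median log2 fold change was -0.07, with 4 values positive and 6 negative. All 13 macrophage markers and all 6 general leukocyte markers were called higher in ILK-K5. The macrophage markers summed to 398 to 620.4 normalized counts in the controls and 17792 to 23588 in ILK-K5, the leukocyte markers to 37.6 to 124 and 3597 to 5116. The part of these cells in the mitosis values below was not tested.

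The mitosis genes covered a wide range of levels. Per length, in fragments scaled by gene length and library size (FPKM), Mki67 and Top2a stood highest, with means over the 6 libraries of 20.0 and 18.0 FPKM. Mki67 encodes the Ki-67 protein that coats mitotic chromosomes, and Top2a the topoisomerase that untangles them. Together they made up 21.5% of the summed FPKM of the members. Mad2l1, a spindle checkpoint gene, followed at 12.1 FPKM, the cyclin genes Ccna2 and Ccnb2 at 10.2 and 9.11 FPKM, and Anln, which encodes the cytokinesis scaffold anillin, at 9.09 FPKM. Lowest were the kinesin genes Kif20a and Kif2c, at 0.965 and 0.808 FPKM. Against all genes tested, 14 members had a higher mean FPKM than the median gene. Cdk1, on which mitosis depends, stood at 1.89 FPKM.

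Between genotypes, none of the 38 mitosis genes passed the test in either direction. With limma on log2(normalized count + 1) and p-values adjusted over all genes tested, 3.53% of all genes were called, 2.93% higher and 0.599% lower in ILK-K5. Among the members 0 were called, which is near that background on a list of this length. Also 0 had an unadjusted p under 0.05, a limit that 12.3% of all genes met. DESeq2 and edgeR on reads recovered from the table also called 0 members, where DESeq2 called 6.44% of all genes, 4.72% higher and 1.71% lower. The smallest adjusted p of a member was 0.612. The median log2 fold change of the members, ILK-K5 minus control, was 0.08, beside 0.01 over all genes tested, and 22 of 38 values were positive. The summed members came to 15309.6, 8073 and 5352 normalized counts in control libraries 1 to 3, and to 12537, 6562 and 5848 in ILK-K5 libraries 1 to 3. The genotype means, 9578 ± 5147 and 8316 ± 3673 (SD, n = 3), differed by less than the SD of either group.

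A p that misses the threshold does not show equal levels, and the intervals say how far the data reach. The 95% confidence interval of the log2 fold change stayed within 4-fold either way for 34 of the 38 members, and within 2-fold for 1, Anln (-0.95 to 0.57). The highest upper bound was 2.40, for Cdc20, and the lowest lower bound -1.84, for Spc25. With a term for the number in the library names, described below, the intervals stayed within 4-fold for 37 members and within 2-fold for 16, and again 0 were called, beside 6.92% of all genes (5.17% higher and 1.75% lower).

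**Figure D1:**
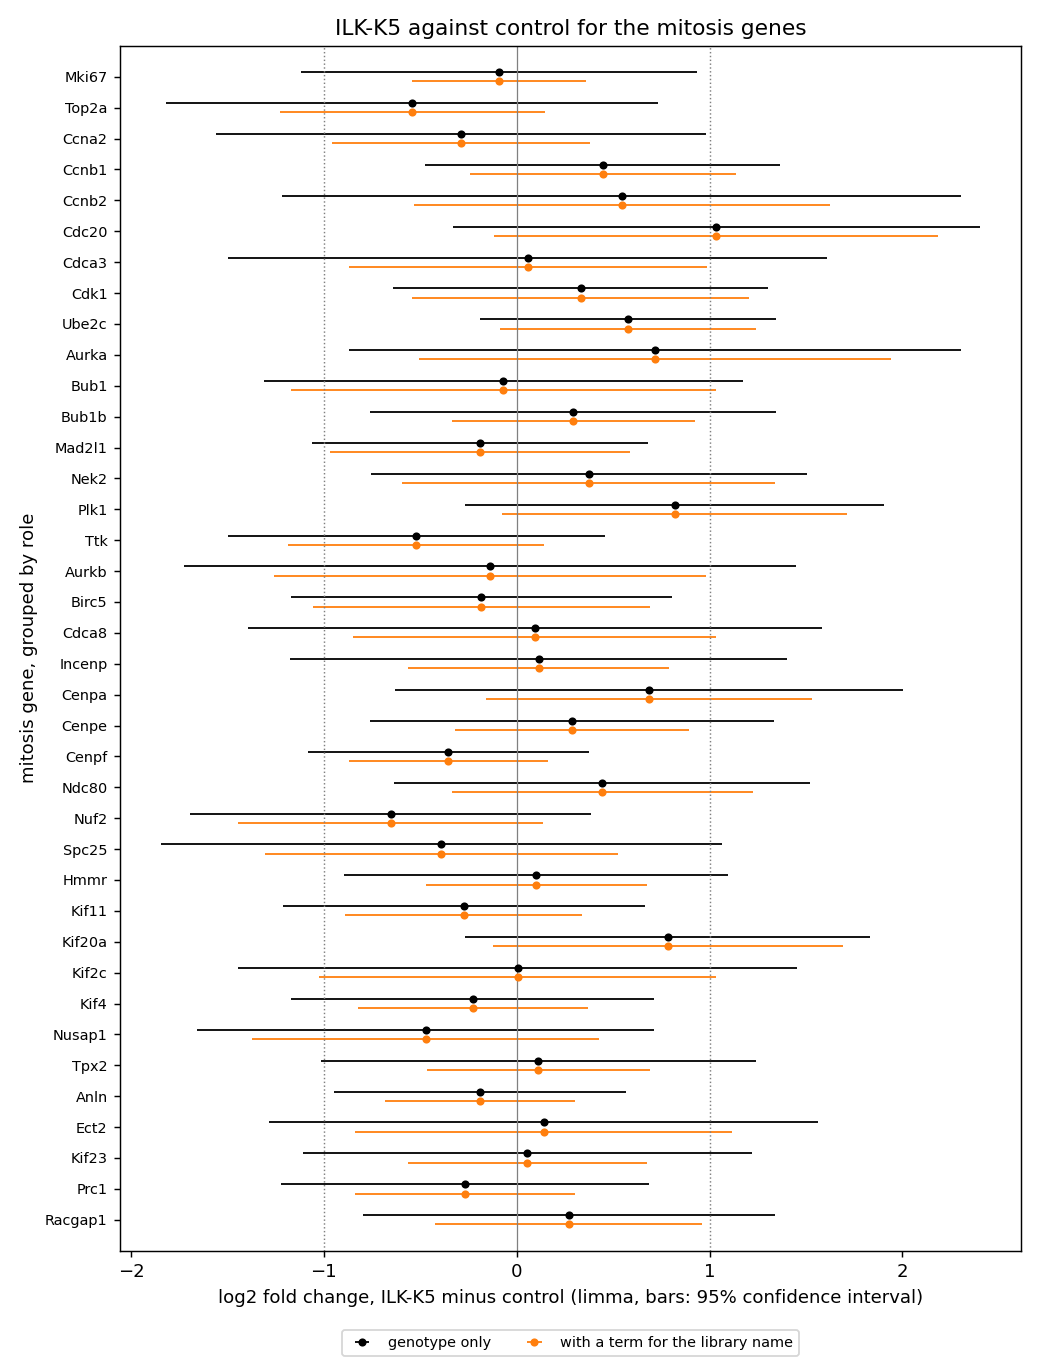
Log2 fold change, ILK-K5 minus control, of each of the 38 mitosis genes (rows, grouped by role), as points with bars for the 95% confidence interval from limma; black is the fit on genotype only and orange the fit with a term for the library name, and dotted lines mark 2-fold either way. Every bar crosses 0, and orange bars are shorter than black ones.

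Mki67, the most abundant member, had nearly equal levels in the libraries of like number. It stood at 3509, 1300.1 and 1373 normalized counts in control libraries 1 to 3 and at 2922, 1296 and 1372 in ILK-K5 libraries 1 to 3. Library 1 was high and libraries 2 and 3 were low in both genotypes, and the groups overlapped. The log2 fold change was -0.09 ± 0.46 (SE), adjusted p = 0.973 (limma). Top2a had 3252, 1769.9 and 727 normalized counts in the controls and 2140.3, 799.8 and 794 in ILK-K5, with a log2 fold change of -0.54 ± 0.57 and an adjusted p of 0.836 (limma). Control library 2 lay nearer to library 1 for Top2a than for Mki67.

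Of the 7 genes of cyclins, Cdk1 and the cyclosome, 6 had positive fold changes, with a median of 0.45 on the log2 scale, and 0 were called. Ccnb1, the cyclin B1 gene, stood at 135, 134 and 86.3 normalized counts in the controls and at 268, 124 and 119.8 in ILK-K5 (0.45 ± 0.41, adjusted p = 0.801, limma). Cdk1 had 53.1, 56.3 and 53.7 in the controls, the closest set of 3 values among the genes named here, and 83.1, 92.6 and 41.9 in ILK-K5. The ILK-K5 libraries of Cdk1 thus lay on both sides of the controls (0.33 ± 0.43, adjusted p = 0.881, limma).

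Cdc20, the activator that turns the cyclosome on at anaphase, had the highest fold change of the members. Its levels were 27.0, 7.60 and 15.2 normalized counts in the controls and 36.4, 33.2 and 25.3 in ILK-K5, with control library 1 above the lowest ILK-K5 library. The log2 fold change was 1.03 ± 0.61, adjusted p = 0.612 (limma). Ube2c, the ubiquitin-conjugating enzyme of the cyclosome, stood at 115, 79.1 and 90.0 in the controls and at 145, 168 and 113 in ILK-K5 (0.58 ± 0.34, adjusted p = 0.614, limma). Only control library 1 reached the range of ILK-K5 for Ube2c, and 22.8% of the exon bases of Ube2c overlap Tnnc2. Ccna2, Ccnb2 and Cdca3, a gene of mitotic entry, had log2 fold changes of -0.29, 0.54 and 0.06.

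The 7 mitotic and checkpoint kinase genes, with Mad2l1 counted among them for its place in the checkpoint, had a median log2 fold change of 0.29, from -0.52 to 0.82. Plk1, Polo-like kinase 1, stood at 32.8, 27.4 and 31.2 normalized counts in the controls and at 91.1, 46.3 and 38 in ILK-K5. All ILK-K5 libraries lay above all controls, by 0.82 ± 0.48 on the log2 scale, with an adjusted p of 0.614 (limma). Ttk, the kinase that starts the spindle checkpoint, had the lowest value of the group, with 175, 131 and 114 in the controls and 174, 73.3 and 68.2 in ILK-K5 (-0.52 ± 0.43, adjusted p = 0.777, limma). Its ILK-K5 libraries 2 and 3 lay below all controls and its library 1 did not. Aurka, Nek2, Bub1b, Bub1 and Mad2l1, for Aurora A, a centrosome kinase and 3 checkpoint proteins, had log2 fold changes of 0.72, 0.37, 0.29, -0.07 and -0.19.

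The chromosomal passenger complex corrects faulty attachments and consists of the kinase Aurora B and its partners. Its genes Incenp, Cdca8, Aurkb and Birc5 had log2 fold changes of 0.11, 0.09, -0.14 and -0.18, the narrowest range of fold changes among the role groups with more than a pair of genes. The 6 centromere and kinetochore genes spanned -0.65 to 0.69. Cenpa, the histone H3 variant that marks centromeres, had 112, 59.3 and 26.1 normalized counts in the controls and 156, 71.7 and 66.2 in ILK-K5 (0.69 ± 0.58, adjusted p = 0.782, limma). Nuf2, of the NDC80 complex that grips microtubules, had 145, 128 and 62.4 in the controls and 101, 49.4 and 58.4 in ILK-K5. Its log2 fold change of -0.65 ± 0.46 was the lowest of the members (adjusted p = 0.717, limma), while Ndc80, its direct partner, had 0.44 ± 0.48. Cenpf, a kinetochore protein of late G2, stood at 349, 248 and 263 against 313, 194 and 179 (-0.35 ± 0.32, adjusted p = 0.801, limma). The kinesin gene Cenpe had 0.29 and Spc25, also of the NDC80 complex, -0.39.

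Among the 7 genes of spindle motors and microtubule binders, Kif20a, a kinesin of late mitosis, stood at 35.7, 19.8 and 23.9 normalized counts in the controls and at 47.8, 46.3 and 40.9 in ILK-K5. All ILK-K5 libraries lay above all controls (0.78 ± 0.46, adjusted p = 0.622, limma), and 29.3% of the exon bases of Kif20a overlap Cdc23. Plk1 and Kif20a were the 2 of 38 members with every ILK-K5 library above every control, a pattern met by 10.9% of all genes tested, and 0 members lay wholly below, as did 6.95% of all genes (17.9% in either direction). The other motors and binders, Kif11, Kif4, Kif2c, Tpx2, Hmmr and Nusap1, had log2 fold changes from -0.47 (Nusap1) to 0.11 (Tpx2). The central spindle and cytokinesis genes Racgap1, Ect2, Kif23, Anln and Prc1 had fold changes of 0.27, 0.14, 0.06, -0.19 and -0.27 on the log2 scale.

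The larger difference among the mitosis genes was between libraries of the same genotype. Across the 6 libraries the highest value of a member was between 1.95 and 11.3 times the lowest, with a median of 3.12. In the controls library 1 was the highest of the 3 for 35 of 38 members, where 36.9% of all genes had it highest. In ILK-K5 library 1 was the highest for 32 of 38, beside 41.8% of all genes. Both held for 31 of 38 members, beside 24.9% of all genes tested. Library 3 was the highest in its genotype for 0 members in either group, beside 35.3% of all genes in the controls and 24.6% in ILK-K5. The libraries 1 also share a label. The last 3 digits of the library names form the same number in library 1 of both genotypes and another in all 4 libraries 2 and 3. Libraries 2 and 3 differ in the digit before these, which is the same in both genotypes. The labels do not say what the numbers stand for. The libraries are compared below by that number, as libraries 1 against libraries 2 and 3. This comparison was taken up after the values were seen, so its p-values and calls are a description.

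**Figure D2:**
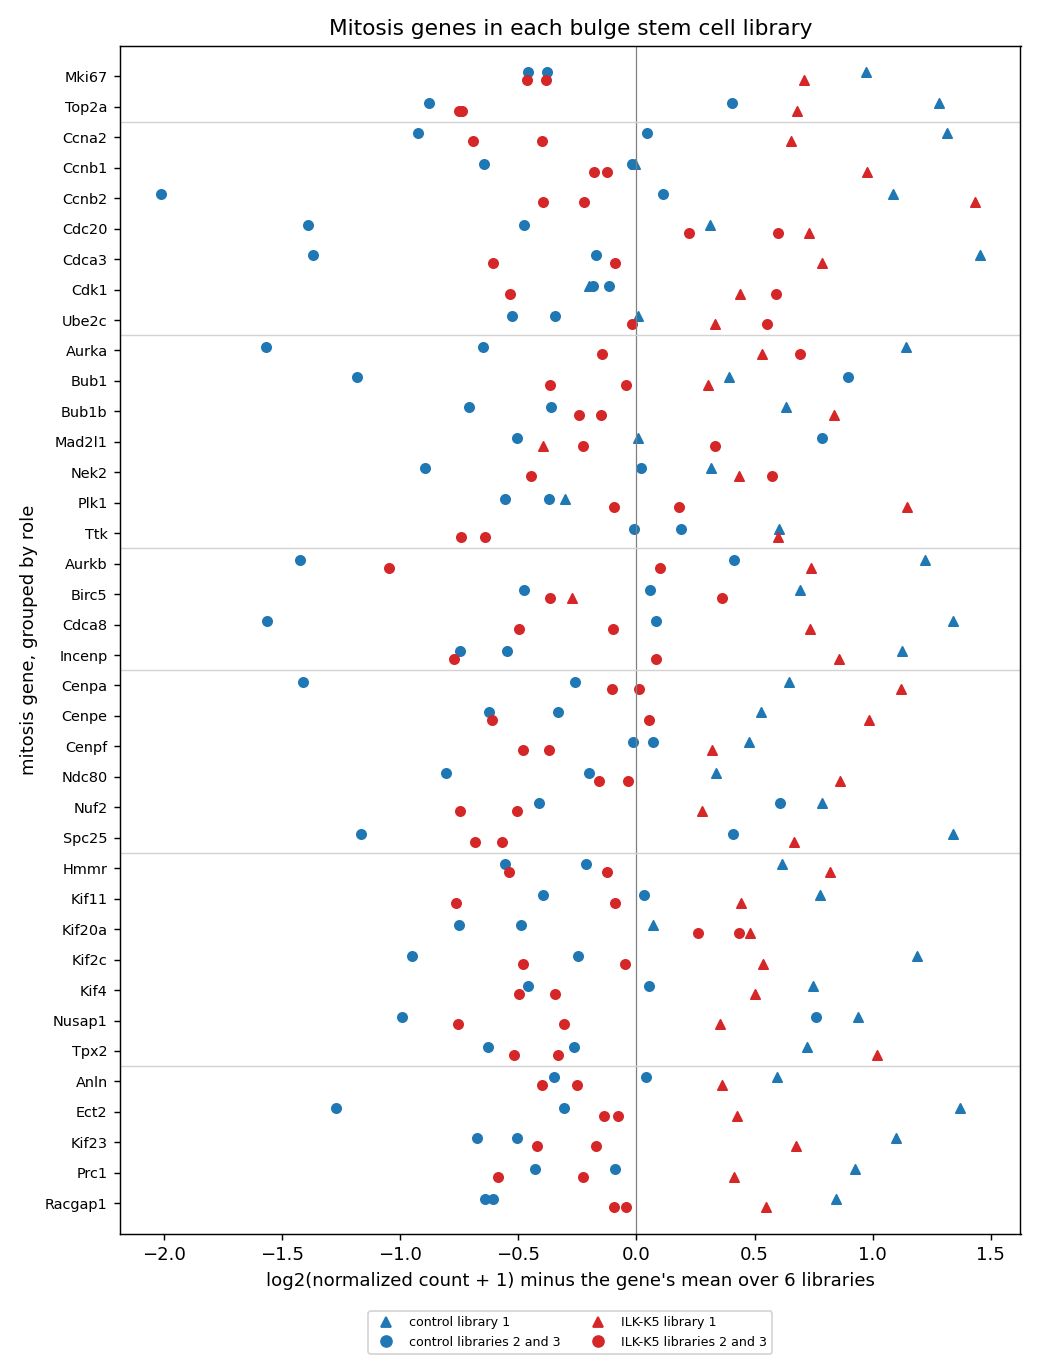
Each row is a mitosis gene and each point a library, placed at its log2(normalized count + 1) minus the mean of that gene over the 6 libraries; blue is control, red ILK-K5, triangles are libraries 1 and circles libraries 2 and 3. For 26 of the 38 genes both triangles lie to the right of all circles, while blue and red are mixed.

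The 2 libraries 1 lay above all 4 libraries 2 and 3 for 26 of 38 members, a pattern met by 16.0% of all genes tested, and below all of them for 0, beside 17.8% of all genes. With limma and a term for this number beside the genotype, 12 of 38 members were called higher in libraries 1 and 0 lower, against 2.88% and 5.95% of all genes (8.83% in either direction). An unadjusted p under 0.05 was met by 26 of 38 members and by 29.2% of all genes. The log2 difference, libraries 1 minus libraries 2 and 3, was positive for 37 of 38 members and for 49.3% of all genes, with medians of 1.02 and -0.01. The exception was Mad2l1, at 249, 427 and 174 normalized counts in the controls and 188, 312 and 211 in ILK-K5, with library 2 the highest in both genotypes (log2 difference -0.29 ± 0.37, adjusted p = 0.63, limma). The sum over the members was 2.16 times as high in libraries 1 as in libraries 2 and 3. Mki67 and Top2a weigh heavily in it, with 6761 of 15309.6 normalized counts in control library 1 and 5063 of 12537 in ILK-K5 library 1.

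The 12 genes called higher came from all 7 role groups. Mki67 differed by 1.26 ± 0.21 on the log2 scale, with an adjusted p of 0.014, and Top2a by 1.47 ± 0.33 (adjusted p = 0.028), in the same limma fit as the next values. Ccnb2, the cyclin B2 gene, had the largest difference of the members, 1.89 ± 0.51 (adjusted p = 0.0495), with 225, 114 and 25.4 normalized counts in the controls and 287, 90.2 and 79.9 in ILK-K5. Both libraries 1 thus lay well above the other 4. Ccna2, the cyclin A2 gene, had 746, 309 and 157 in the controls and 472, 227 and 185 in ILK-K5, a difference of 1.48 ± 0.32 (adjusted p = 0.0256), and Cdca3 differed by 1.68 ± 0.44 (adjusted p = 0.0453).

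Among the kinases Bub1b was called, at 171, 85.2 and 66.8 against 197, 98.7 and 92.5 normalized counts (1.10 ± 0.30). Of the chromosomal passenger complex Incenp was called, at 391, 122 and 106 in the controls and 324, 189 and 104 in ILK-K5 (1.49 ± 0.32, adjusted p = 0.0259, limma). At the kinetochore Cenpe was called (1.13 ± 0.29), of the spindle binders Tpx2, which activates Aurora A on the spindle (1.31 ± 0.27), and Hmmr (1.08 ± 0.27). Of the cytokinesis genes Kif23 (1.33 ± 0.29) and Prc1, which bundles the microtubules of the central spindle were called. Prc1 had 418, 163 and 206 normalized counts in the controls and 293, 187 and 146 in ILK-K5 (adjusted p = 0.0493, limma).

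Other members gave smaller values between the library names or wide errors. Cdk1 had 0.18 ± 0.41, Ube2c 0.25 ± 0.31, Kif20a 0.41 ± 0.43, Plk1 0.63 ± 0.42 and Cdc20 0.78 ± 0.55 on the log2 scale, libraries 1 minus libraries 2 and 3, and none of these was called. Birc5, the survivin gene, had 0.32 ± 0.41, with 119, 76.0 and 52.2 normalized counts in the controls and 60.3, 94.1 and 56.5 in ILK-K5, so that its 2 libraries 1 lay apart. Cdca8 (1.56) and Spc25 (1.51) had large differences with adjusted p of 0.0581 and 0.0592 (limma), just outside the threshold, where Ccnb2 and Bub1b were just inside.

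**Figure D3:**
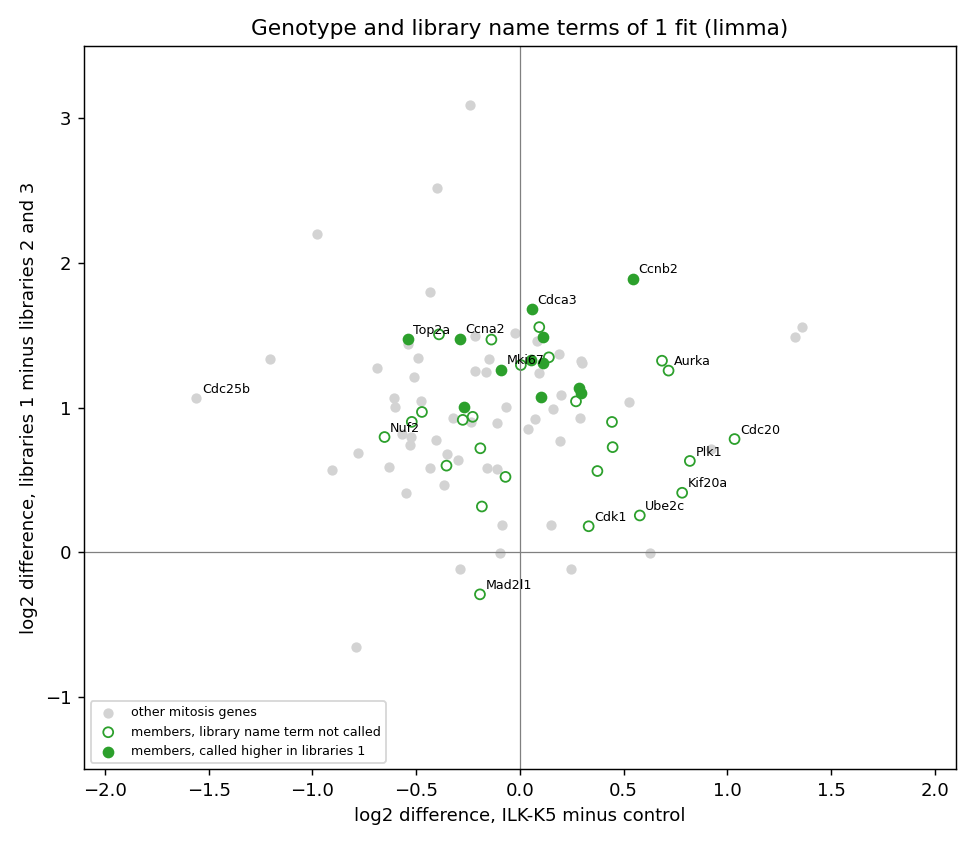
Each point is a gene, with its log2 difference ILK-K5 minus control on the horizontal axis and libraries 1 minus libraries 2 and 3 on the vertical axis, both from 1 limma fit; green circles are the 38 mitosis genes, filled where the library name term was called, and grey points the other mitosis genes tested. The green points sit around 0 horizontally and, except Mad2l1, above 0 vertically.

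The count of calls between library names moved with single libraries, and so did that over all genes. With control library 1 or ILK-K5 library 1 left out it was 0, where 0.0% of all genes were called higher. With ILK-K5 library 2 left out it was 0 (0.0305% of all genes), with ILK-K5 library 3 left out 1 (0.611%), with control library 3 left out 11 (2.9%) and with control library 2 left out 25 (10.1%). It was also 1 with scaling to total reads (0.587% of all genes) and 20 with DESeq2 (6.96%), while 36 or 37 of 38 differences were positive in all of these fits, with medians from 0.94 to 1.11. Reads on genes were 10486936 and 8537226 in libraries 1 and 8228019 to 11969072 in the others, and the mitochondrial chromosome took 23.6% and 24.2% of reads in the former and 11.5% to 27.6% in the latter. Among bulge markers, Lgr5, a receptor gene of the lower bulge and hair germ, was called higher in libraries 1, at 5528 and 5413 normalized counts against 1893 to 3089.8, and Krt15 lower, at 28999 and 10084 against 31898 to 97406 (1.19, adjusted p = 0.0339, and -1.51, adjusted p = 0.0423, limma). Of 13 macrophage markers 0 were called higher in libraries 1 and 1 lower, and of 6 leukocyte markers 0 were called. With 2.88% of all genes called higher and 5.95% lower, these counts are near the background. The part of any of these in the mitosis values was not tested.

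Within libraries 2 and 3, with 2 of each genotype, 0 members were called between genotypes, beside 2.9% of all genes, and the median log2 fold change was 0.19, beside 0.01 over all genes. In the pair of libraries 1, with 1 library of each genotype and no test, it was -0.26. The sign of the median over all 6 libraries rested on single libraries: leaving out control library 1 gave 0.53, control library 3 gave -0.29 and ILK-K5 library 1 gave -0.26, with 0 members called in each.

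On a wider list of 60 other mitosis genes 58 were tested. Between genotypes 0 of these were called, beside 3.53% of all genes and near the background at that length, with a median log2 fold change of -0.23. Between library names 9 were called higher in libraries 1 and 0 lower, beside 2.88% and 5.95% of all genes. The median difference was 0.96, and 53 of 58 values were positive, beside 49.3% of all genes. Among those called were Aspm, Cdc25b, Dlgap5, Kif15, Kifc1, Ncaph, Ska3 and Spag5. Ska3, a kinetochore gene, had 273, 76.0 and 27.6 normalized counts in the controls and 202, 43.2 and 28.2 in ILK-K5 (a difference between library names of 2.52 ± 0.45, adjusted p = 0.0156, limma).

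Cdc25b, the phosphatase that helps to switch Cdk1 on at mitotic entry, had the smallest p between genotypes on that list. It stood at 1116, 569 and 428 normalized counts in the controls and at 340.4, 178 and 173 in ILK-K5, with all ILK-K5 libraries below all controls. The log2 fold change was -1.56 ± 0.42 with an adjusted p of 0.0921 (limma), which missed the threshold. With the term for the library names the adjusted p was 0.00251 (limma), and with DESeq2 0.0127, so the call depended on the model. Knstrn, a spindle protein gene, had 0.63 ± 0.36 and the condensin gene Smc2 -0.55 ± 0.32 (adjusted p = 0.603 and 0.604, limma).

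Of 23 tested regulators of the transcription of mitosis genes, 0 were called between genotypes, with a median of 0.08. With 3.53% of all genes called, a count of 0 on a list of this length is near the background. Foxm1, a forkhead factor that activates G2 and M genes, had 169.8, 31.9 and 45.0 normalized counts in the controls and 118, 71.7 and 42.9 in ILK-K5 (0.19 ± 0.66, adjusted p = 0.962, limma). Mybl2, which encodes B-Myb, had low levels of 7.72, 4.56 and 23.2 against 26.2, 23.1 and 30.2 (1.37 ± 0.69, adjusted p = 0.508, limma), and E2f3 had 0.99 ± 0.53 with all ILK-K5 libraries above all controls (adjusted p = 0.553, limma). Lin9, a MuvB subunit (-0.13 ± 0.30), and Rbl2, the p130 pocket protein of the DREAM complex (-0.33 ± 0.24), had all ILK-K5 libraries below all controls and were not called. Both are named here after their values were seen. Of the 23 regulators 1 thus lay wholly above and 2 wholly below, beside 10.9% and 6.95% of all genes, which is near the background.

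Between library names, Foxm1 (1.61 ± 0.41), E2f1 (1.24 ± 0.30) and E2f8 (1.65 ± 0.30), factors of the cell cycle, were called higher in libraries 1 (3 of 23, beside 2.88% of all genes), and Tfdp1, the partner of E2F factors (-1.24 ± 0.28), and Rbbp4, a subunit of MuvB (-0.91 ± 0.23), lower (2 of 23, beside 5.95%). E2f8 had 555, 154 and 112 normalized counts in the controls and 393, 164 and 173 in ILK-K5, with both libraries 1 high. Of 20 genes that control entry and exit, such as subunits of the cyclosome and phosphatases, 19 were tested and 0 were called in either comparison, also near the background at that length, with medians of -0.13 between genotypes and -0.10 between library names. The smallest p between genotypes there was that of Anapc10, a cyclosome subunit (-0.72 ± 0.34, adjusted p = 0.461, limma).

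**Figure D4:**
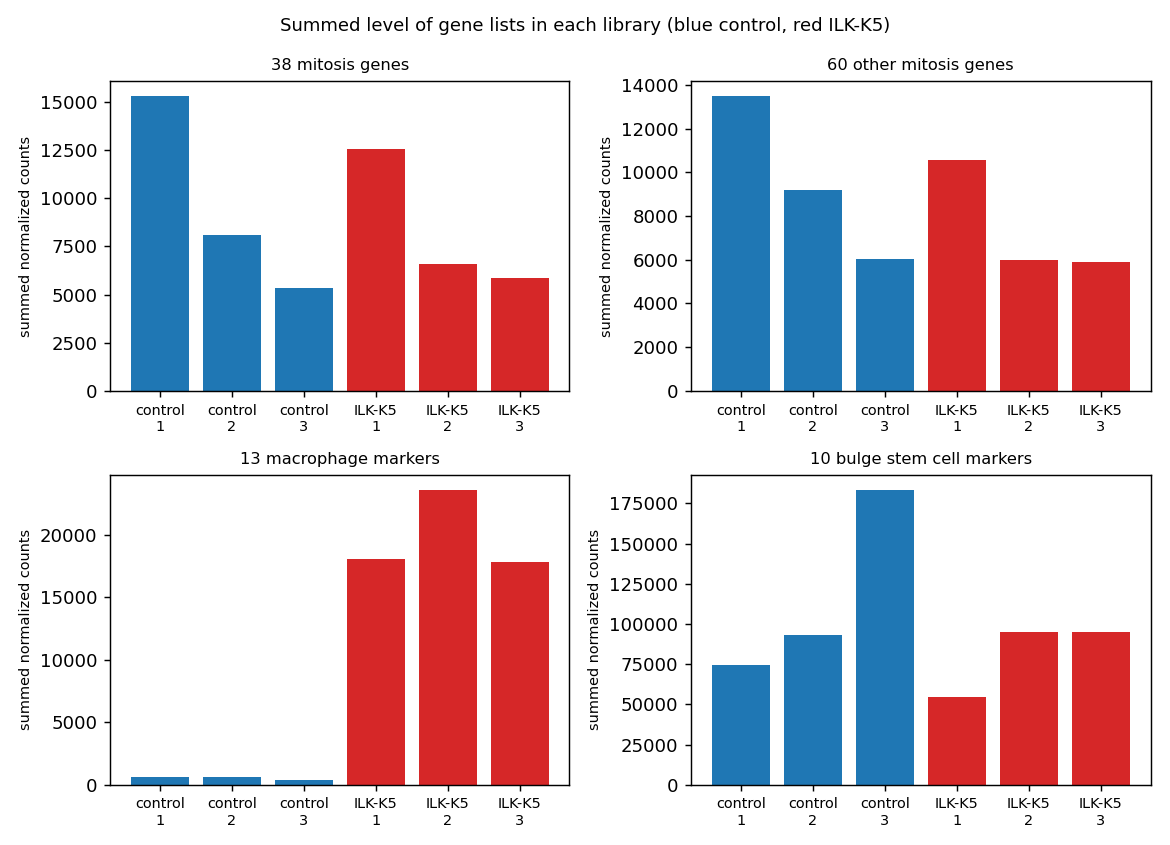
Bars give the summed normalized counts of 4 gene lists in each library (blue control, red ILK-K5; every axis starts at 0). For both mitosis lists library 1 is the tallest bar within each genotype, while macrophage markers separate the genotypes. The bulge marker sum is lowest in library 1 within each genotype. Single bulge markers were mixed: of 10, libraries 1 lay above all others for 3 and below for 2.

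The remaining marker lists were mixed. Among T cell markers 1 of 5 tested was called higher in ILK-K5, among Langerhans and dendritic cell markers 4 of 6 (summing to 503 to 1493 normalized counts in the controls and 17729.6 to 33165 in ILK-K5), among fibroblast markers 1 of 3 and among endothelial markers 0 of 2. Of 4 melanocyte markers tested 1, the factor gene Mitf, was called lower in ILK-K5, with 3 values positive and a median log2 fold change of 0.40. Of 6 hair germ and transit-amplifying markers tested 1, Dlx3, was called lower, with 4 values positive and a median of 0.49. Over all genes 2.93% were called higher and 0.599% lower.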

How the data were processed

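Bulge SCs of 3 control and 3 ILK-K5 samples were sorted at P21, their RNA was amplified (Ovation RNA-Seq V2) and Nextera XT libraries were sequenced in paired reads on a HiSeq2000. The authors trimmed adapters with flexbar, removed ribosomal reads and aligned to GRCm38; the submitters' processing notes name TopHat2 2.0.14, Bowtie2 2.2.4 and DESeq2 1.6.3, and the counting program is not given in the sources used here. The deposited signal values are read counts per gene divided by a size factor of each library (normalized counts). In all libraries 100.0% of values were whole multiples of 1 read within 0.001 read, so reads were recovered for the count tests. The deposited FPKM values equal these counts times 1 constant per gene, so they add per-length levels only. A further 4 deposited tables hold the authors' own comparison (fold changes and p-values) and were not used.

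Identifiers were paired with symbols for 97.3% of 43274 genes (GENCODE annotation, GRCm38). The main test was limma 3.58.1 (lmFit, eBayes with trend, R 4.3.3) on log2(normalized count + 1) for 16368 genes with a mean of at least 10, with Benjamini-Hochberg adjustment over all genes tested and calls at an adjusted p of at most 0.05. It stands in for the count test of the study since the table is normalized, and its fold changes understate those of low genes. edgeR 4.0.16, DESeq2 1.42.0, other pseudocounts, filters and scalings, a replicate block and leaving out each library were alternatives. The fit was tested on simulated data. With 3 libraries per genotype an exact permutation test of 1 gene cannot go below 0.1, so none was run. A term for the number in the library names was a further alternative, and the difference between library names was read from that fit after the values were seen. The members and lists were chosen with earlier results of these data known. Values in every library are given for Mki67, Top2a, Cdk1, Ccnb1 and the 8 members with the smallest p; further members shown so (such as Ccna2, Ccnb2, Mad2l1, Incenp, Bub1b, Birc5 and Prc1) were chosen after their values were seen. Precision is limited by 8228019 to 11969072 reads on genes per library, which cover counting error only. Strand-specific counting is not stated, so reads from overlapping genes cannot be told apart; Kif20a (29.3% of exon bases), Ube2c (22.8%), Kif4 (15.1%), Ccna2 (12.5%) and Prc1 (11.1%) overlap another gene most.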

Additional observations from a re-analysis of the deposited data

How the results depend on the processing

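Under 17 alternatives 0 members were called between genotypes, with adjusted p of at least 0.196 (limma, without control library 3). The median log2 fold change of the members ranged from -0.29 to 0.53 when 1 library was left out, and was -0.18 with edgeR and -0.20 with DESeq2. Scaling to total reads moved the median of all genes by 0.19 and that of the members to 0.26. Of 641 member values under these alternatives 61 had the opposite sign, none called. Genes called higher in ILK-K5 numbered 772 with DESeq2, 848 with the replicate block and 846 with the library name term, beside 479. Those called lower numbered 280, 269 and 286, and 60 with scaling to total reads, beside 98. Leaving out 1 library gave 222 to 559 higher and 32 to 98 lower, under the main counts by over 1.5 times without control library 2 (310.0 and 35) and each ILK-K5 library. Same-numbered libraries carry matching digits in their names, but the labels state no shared origin. Correlations of the deviations of same-numbered libraries were 0.53, 0.02 and 0.31, and not every library correlated best with its own number. With the replicate block 0 members and Cdc25b (-1.56) were called, the latter also with DESeq2 (-1.64) and the library name term. Between library names, genes called higher were 96 with scaling to total reads and 1140.0 with DESeq2, beside 472. Leaving out 1 library gave 0 to 1654. Members called were 1 and 20, and 0 to 25 without 1 library, for the libraries named in the report; the cause was not tested. Depth limits Cdc20, Aurka and Kif2c most.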
